A study of Homo sapiens with 9 samples.

Results

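The baseline transcriptome of control MDA-MB-231 cells was described from the 3 control libraries of a series of 9. MDA-MB-231 is an established human breast adenocarcinoma line of the triple-negative type, a class of tumour defined by lack of the estrogen receptor, the progesterone receptor and amplified HER2. Stable transduction with pLKO.1 lacking an insert, a lentiviral vector, gave the control cells, which received no agent and were sequenced from separate batches of cells. The other groups of the series, ACSL4 knockdown cells (pLKO.1-shACSL4) and cells with the control vector under PRGL493, an inhibitor of ACSL4, were not compared here. All values come from one transduced line and say nothing of untransduced cells or of other lines. With a single group there is no contrast, so every level below is a description with no test.

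Breast epithelium has a luminal layer, marked by keratins 8, 18 and 19 and by the estrogen receptor programme, and a basal layer marked by keratins 5 and 14 and by p63. Carcinoma cells can also take on mesenchymal features, a change called epithelial-mesenchymal transition (EMT), in which E-cadherin is lost and vimentin, fibronectin and matrix-remodelling enzymes are made. Transcription factors of the SNAIL, ZEB and TWIST families drive that change.

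Totals were 30845845, 31326923 and 33020202 estimated counts in control libraries 1, 2 and 3. Levels are CPM, which are counts divided by the scaled library size, and are given in the order of libraries 1, 2 and 3 or as mean ± SD (n = 3). Where genes are compared with each other, CPM was divided by transcript length (CPM per kb). A gene was called expressed at 1 CPM or more in all 3 libraries and silent under 0.1 CPM in all 3, and otherwise low. A count of 0 allows a level of up to 3 counts, which is 0.0909 to 0.0973 CPM per library and covers counting error only. In bulk RNA, fewer cells that express a gene and less of its RNA per cell cannot be told apart.

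The line's markers were expressed in every library, and VIM and CD44 stood at ranks 39 and 55 by CPM. VIM, the intermediate filament vimentin (chromosome 10, 17228259 to 17237593, plus strand, GRCh38), was at 1715, 1685 and 1684 CPM. CD44, the hyaluronan receptor (chromosome 11, 35138870 to 35232402, plus strand), was at 1276, 1348 and 1333 CPM. EGFR, the epidermal growth factor receptor (chromosome 7, 55019021 to 55211628, plus strand), was at 246, 283 and 283 CPM. VIM and CD44 varied little between libraries, and EGFR was lowest in library 1. Per kb EGFR was at 27.5 ± 2.19, far under VIM (794 ± 8.24) and CD44 (230 ± 6.55).

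Of 26475 rows in the table, 12428 were expressed (46.9%), 3179 were low and 10868 were silent (41.1%). No count was listed in any of the 3 libraries for 8320 rows. Of 19063 rows matched to protein-coding genes, 11801 were expressed (61.9%) and 5075 were silent (26.6%), whereas of 5532 rows matched to other kinds of gene 429 were expressed (7.75%). The counts were spread over many genes. The 10 most abundant held 4.83% ± 0.0399 of each library, the top 100 held 18.2% ± 0.168 and the top 1000 held 51.1% ± 0.161. A level of 1000 CPM or more was reached by 80 rows, and 2346 reached 100 CPM. Counts of expressed members of the lists below are to be read against these shares. The lists are selections, chosen with earlier results of these data known. Their shares therefore describe the listed members and need not hold for whole families. Of the lineage and receptor lists, the mesenchymal, junction, cytokine and death receptor, TGF-beta, and Notch, Wnt and Hedgehog lists lay above the 61.9% of protein-coding rows. The luminal, basal, EMT factor, tyrosine kinase, nuclear receptor, G protein-coupled receptor and integrin lists lay below it, as did each list of another cell type.

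The most abundant genes made a translation factor, cytoskeleton, chaperones, glycolytic enzymes, and matrix and adhesion proteins. EEF1A1, which delivers aminoacyl-tRNA to the ribosome, stood first at 15321, 15760.5 and 15623 CPM and alone took 1.56% of the counts. ACTB and ACTG1, the cytoplasmic actins, were at 4884 ± 161 and 3546 ± 27.9 CPM. CYR61, a secreted matrix-associated protein and a textbook target of YAP, was the third gene at 4823, 4746 and 4568 CPM. HSPA5, the main chaperone of the endoplasmic reticulum, was at 3653 ± 131 CPM. THBS1, a matrix glycoprotein, was at 3125, 3074 and 3105 CPM. By CPM the secreted CYR61 and THBS1 ranked with the housekeeping genes in every library, but per kb THBS1 was at rank 104.

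Most other genes of the top 25 fell into the same groups. ENO1, LDHA and PKM of glycolysis were at 3405 ± 48.0, 2469 ± 53.2 and 2427 ± 58.5 CPM. The actin cross-linker FLNA and the motor MYH9 were at 3068 ± 52.8 and 2237 ± 108 CPM. The integrin subunits ITGA3 and ITGB1, which pair as a laminin receptor, were at 2815 ± 67.5 and 2675 ± 36.3 CPM. Beside them stood TUBB, a beta tubulin (2555 ± 79.6 CPM), and the chaperones HSP90AB1, HSP90B1 and CANX (2637 ± 19.8, 2364 ± 51.7 and 2422 ± 7.31 CPM). FTL and FTH1, the subunits of ferritin, which stores iron, were at 2589.7 ± 93.0 and 2126 ± 137 CPM, and NAMPT, which makes an NAD precursor, at 2682 ± 88.7 CPM. YWHAZ, a 14-3-3 adaptor, was at 2460.2 ± 95.3 CPM, and PABPC1, which binds poly(A) tails, at 2427 ± 13.6 CPM. EEF1A1, ACTB, FTL and other genes of this list have many processed pseudogenes, and how shared reads were assigned is unknown.

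**Figure D1:**
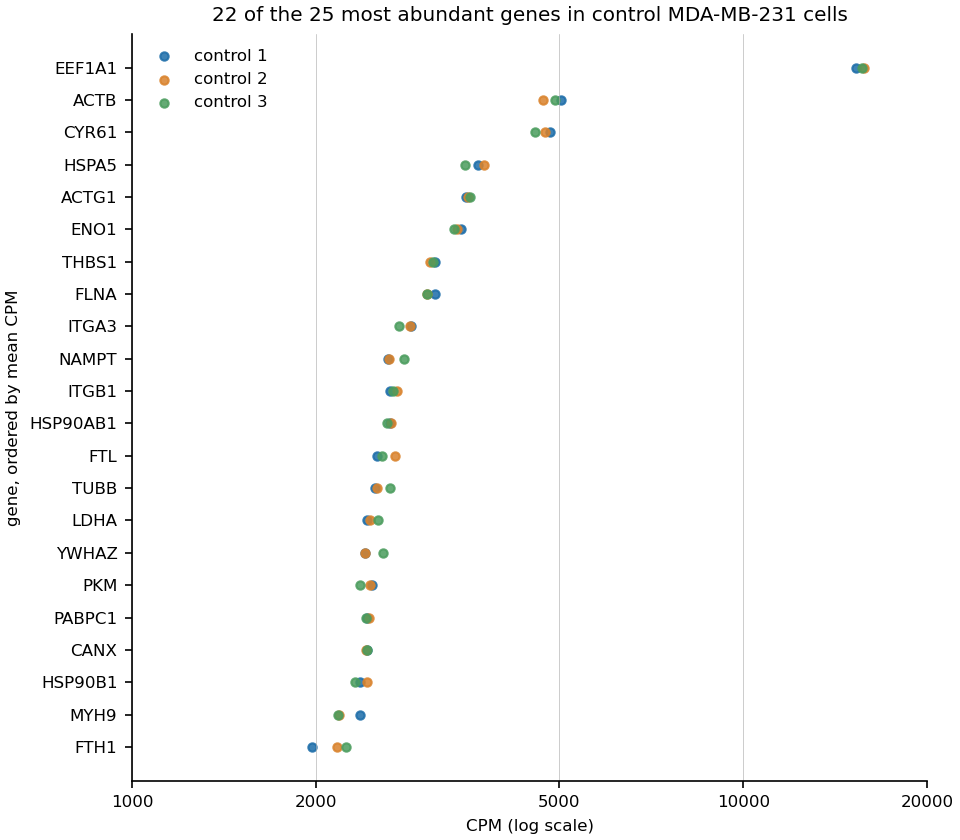
The 22 genes shown of the 25 most abundant in control MDA-MB-231 cells, with CPM on a log axis and a point per library. EEF1A1 lies apart at 15568 CPM on average, and the 3 points of each gene lie close together.

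Dividing by length changed this order. Per kb, EEF1A1 stayed first at 3506 ± 50.6 CPM per kb, followed by FTL (2949.6 ± 106), TMSB4X (2886 ± 12.5), ACTB (2696 ± 89.1) and CYR61 (2058 ± 57.3). TMSB4X makes thymosin beta 4, which binds actin monomers. Of the 25 genes highest by CPM, 11 were among the 25 highest per kb. THBS1 moved to rank 104 and FLNA to rank 117, since their transcripts are long. RPLP0, a protein of the ribosomal stalk, took rank 8 with 1555 ± 71.3 CPM per kb.

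Mesenchymal genes formed the lineage list with the highest levels. Of 25 members 22 were expressed, with a median of 562 CPM against 0.574 CPM over all rows, and their sum was 18624 to 19241 CPM per library. The list includes the line's markers VIM, CD44 and EGFR and was chosen with earlier results of these data known. Its level is therefore a description and no test of lineage. Per length VIM stood at 794 ± 8.24 CPM per kb, ITGB1 at 707 ± 9.6 and ANXA1, a membrane-binding annexin, at 373 ± 9.01. AXL, a receptor kinase linked to invasion, was at 1429, 1443 and 1389.7 CPM. FN1, fibronectin, was at 930.3, 1035 and 989.8 CPM. MMP14, a membrane-bound matrix metalloproteinase, was at 787 ± 28.5 CPM, LOXL2, which cross-links collagen, at 873 ± 32.0 CPM, and FOSL1, an AP-1 subunit, at 352 ± 4.24 CPM.

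A few mesenchymal genes lay near or under 1 CPM. CDH2, N-cadherin, still counted as expressed at 1.55, 1.82 and 1.27 CPM, and SPARC, a matrix protein, was low at 0.938, 0.896 and 0.788 CPM. CDH13 had no count, and THY1, a surface glycoprotein of mesenchymal cells, had 2, 0 and 1 counts. The high level of the list was not shared by these 4 genes.

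The factors that drive EMT were split. Of 12 members 5 were expressed and 6 were silent. SNAI1, the SNAIL gene named in the title of the series (chromosome 20, 49982999 to 49988886, plus strand), was at 10.9, 10.4 and 10.3 CPM. Its paralog SNAI2 was at 48.5, 49.0 and 54.8 CPM. ZEB1 and ZEB2, repressors of epithelial genes, were at 85.9 ± 6.25 and 15.7 ± 0.526 CPM, and TCF3, an E protein, at 80.6 ± 0.519 CPM. SNAI3 was low with 8, 6 and 11 counts, FOXC2 had 1, 0 and 1 and TCF4 0, 2 and 3, and TWIST1, TWIST2, PRRX1 and GSC had no count in any library. Per kb the order was SNAI2 (25.3 ± 1.75), TCF3 (18.1 ± 0.117), ZEB1 (13.7 ± 0.997), SNAI1 (6.25 ± 0.203) and ZEB2 (1.64 ± 0.0551), and no neighbours in this order overlapped between libraries. By CPM, ZEB1 and TCF3 lay above SNAI2, and ZEB2 above SNAI1. The order of these factors thus depends on the transcript length used.

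Luminal genes were present as keratins and absent as hormone receptors. Of 17 members 10 were expressed. KRT19 and KRT7, keratins of simple epithelia, were level with each other at 295 ± 16.7 and 295 ± 6.79 CPM per kb, above KRT18 (248 ± 6.17) and its partner KRT8 (202 ± 6.99). By CPM, KRT8 was at 432, 442 and 412 and KRT18 at 397, 388 and 378. XBP1, a factor of the unfolded protein response, was at 163 ± 7.72 CPM, and GATA3, the luminal lineage factor, at 11.3, 10.8 and 11 CPM. ESR1, the estrogen receptor, had 0, 0 and 1 counts in the 3 libraries. PGR, the progesterone receptor, had 0, 1 and 1 counts, and FOXA1, a pioneer factor for the estrogen receptor, 1, 0 and 1. Among the secreted luminal proteins TFF1 had 7, 13 and 13 counts and TFF3 0, 1 and 0.

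Junction genes were not uniformly lost. Of 22 members 16 were expressed. CLDN4, a claudin of tight junctions, was at 267, 284 and 256 CPM, and CLDN7, another, at 79.8 ± 5.22 CPM. DSG2 and DSP of desmosomes were at 312 ± 7.55 and 227 ± 4.57 CPM. CDH1, E-cadherin, was at 2.00, 2.02 and 1.97 CPM, and EPCAM, an epithelial adhesion molecule, at 17.9, 18.3 and 17.5 CPM, so that claudins and desmosomal genes lay far above E-cadherin (per kb 147 ± 7.57 for CLDN4 and 0.408 ± 0.00497 for CDH1). ESRP1, a splicing factor of epithelial isoforms, was low with 21, 30 and 26 counts, and its paralog ESRP2 was at 9.55 ± 0.739 CPM. GRHL2, a factor that maintains epithelial junctions, had 0, 2 and 4 counts, and RAB25 had none.

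Among basal genes several keratins were at 0, and a chain of laminin-332 and its receptor were abundant. Of 21 members 10 were expressed. KRT5, KRT14 and KRT6B had no count. Other basal keratins were present at low levels, with KRT15 at 3.69, 3.42 and 3.06, KRT17 at 1.88, 2.34 and 1.73 and KRT16 at 0.544 ± 0.169 CPM. TP63, the gene of p63, was at 1.16, 0.672 and 1.30 CPM. LAMB3, a chain of laminin-332, was at 977, 960.1 and 907 CPM. ITGA6 and ITGB4, which pair as its receptor, were at 895 ± 18.7 and 432 ± 15.9 CPM. FOXC1, a factor of basal-like tumours, was at 21.3 ± 0.462 CPM.

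Markers of other cell types were read to check the cultures, and carcinoma cells are known to express part of them. Of 16 leukocyte genes 5 were expressed, with a sum of 210.2 to 233 CPM per library. CD68, a lysosomal protein (126 ± 6.70 CPM), LAPTM5 (59.5 ± 3.22), CD14, a co-receptor for endotoxin (25.8 ± 2.25), and CSF1R, the receptor of macrophage growth factor (6.57 ± 0.244), led per length. PTPRC, the pan-leukocyte phosphatase CD45, had no count, nor did CD3E and CD2 of T cells, MS4A1 of B cells, or TYROBP. The list was thus mixed, with 6 of its 16 members at 0, and the part of other cells in the levels of the expressed members was not tested.

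Of 10 endothelial genes 4 were expressed, with a sum of 77.6 to 84.3 CPM. EGFL7 was at 45.8 ± 2.19, ESAM at 23.1 ± 0.774, KDR, a VEGF receptor, at 9.21 ± 0.658 and PECAM1 at 2.11 ± 0.0365 CPM. CDH5, the endothelial cadherin, had 7, 2 and 2 counts and CLDN5 none. Of 11 fibroblast genes 6 were expressed, with a sum of 135 to 138 CPM. COL6A3 was at 70.3 ± 2.07, PDGFRB at 24.7 ± 0.956 and COL1A2 at 21.6 ± 1.01 CPM, and COL1A1, the main collagen chain of fibroblasts, at 19.7, 14.9 and 16 CPM. DCN and POSTN had no count.

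Expressed members numbered 2 of 8 adipocyte, 3 of 11 neural and melanocyte, and 1 of 11 hepatic, muscle and erythroid genes. PPARG, the adipocyte nuclear receptor, was at 31.5 ± 2.68 CPM and LPL, lipoprotein lipase, at 10.2 ± 0.832 CPM, with no count for ADIPOQ, FABP4 or LEP. MITF was at 18.5 ± 0.481 CPM, with no count for SOX10, MLANA or TYR. SERPINA1, a protease inhibitor best known from liver, was at 302, 317 and 307 CPM, while ALB, albumin, had 2, 0 and 0 counts and the globins HBA1 and HBB had none. SERPINA1 alone made up nearly the whole sum of its list, 303 to 317 CPM per library.

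**Figure D2:**
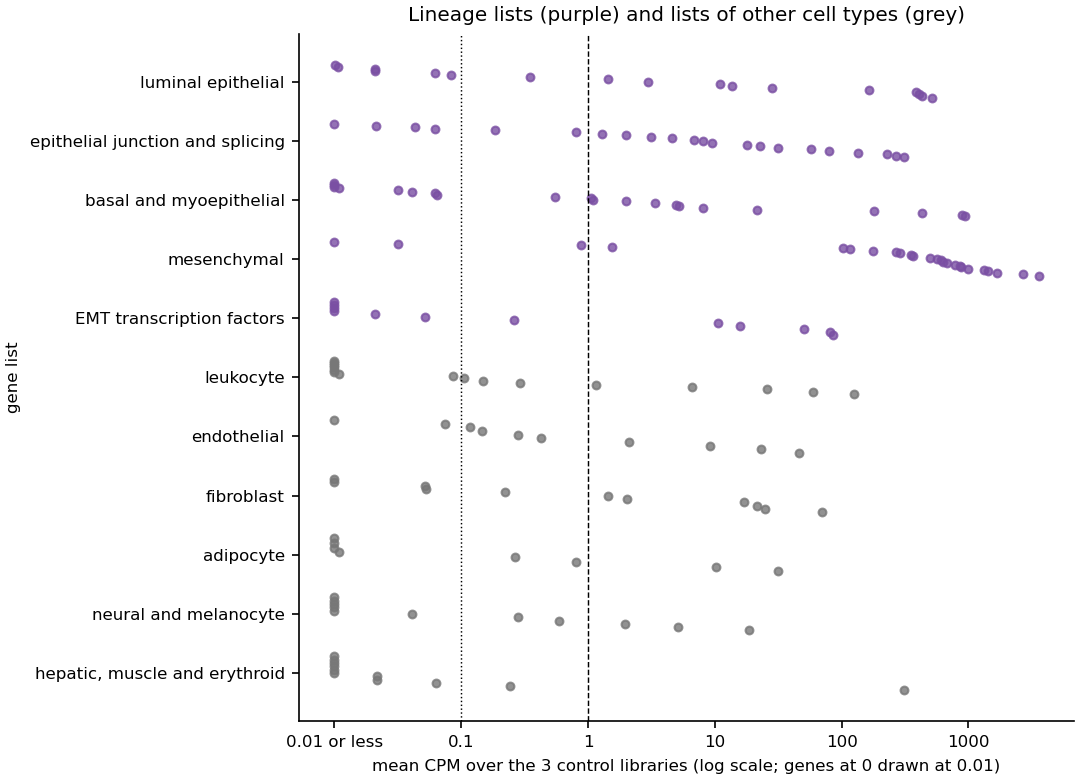
Mean CPM over the 3 control libraries (log axis) of every member of 5 lineage lists (purple) and 6 lists of other cell types (grey), with genes at 0 drawn at 0.01, a dashed line at 1 CPM and a dotted line at 0.1 CPM. In the mesenchymal list 21 of 25 genes lie above 100 CPM, and each of the other lists spreads on both sides of the lines.

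Receptor tyrosine kinases were expressed in 31 of 58 cases, and levels fell steeply after the first. AXL led at 299.9 ± 5.80 CPM per kb, then EPHA2, an ephrin receptor (87.5 ± 4.11), MET, the hepatocyte growth factor receptor (63.1 ± 1.80), and DDR1, a collagen receptor (39.0 ± 1.44). PTK7 followed at 33.2 ± 1.76, FGFR1 at 29.1 ± 0.800 and EGFR at 27.5 ± 2.19 CPM per kb, and the values of FGFR1 and EGFR overlapped between libraries. ERBB2, the gene of HER2, was at 78.5, 73.5 and 71.3 CPM. ERBB3 was at 21.2, 21.7 and 19.8 CPM. ERBB4 had 1, 1 and 5 counts, KIT, the stem cell factor receptor, 5, 0 and 1, FGFR2 0, 0 and 1, and ALK none.

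The promoters of a pair of expressed genes are shown because one has a TATA motif and the other has none. EGFR has no TATAAA, and CTGF, a secreted YAP target at 1873 ± 79.6 CPM, has one. Both come from RefSeq on GRCh38.p14, run from 250 bases before to 50 after an annotated start, and carry TATAAA and GGGCGG, on either strand, in capitals. The EGFR window, the first of 2 listed starts, lies on the plus strand at chr7:55018767-55019066. It has 3 GGGCGG matches and a GC content of 75.3%. The CTGF window, listed under the current symbol CCN2, lies on the minus strand at chr6:131951323-131951622. It has 1 TATAAA match beginning at position -32 from the start, 3 GGGCGG matches and a GC content of 54.3%.
EGFR: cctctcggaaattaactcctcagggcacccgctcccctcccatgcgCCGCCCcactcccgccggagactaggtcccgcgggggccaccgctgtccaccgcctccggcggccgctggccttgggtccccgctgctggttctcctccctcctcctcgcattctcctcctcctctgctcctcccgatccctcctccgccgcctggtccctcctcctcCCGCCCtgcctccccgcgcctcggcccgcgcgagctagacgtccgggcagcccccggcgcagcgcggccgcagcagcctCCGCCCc
CTGF: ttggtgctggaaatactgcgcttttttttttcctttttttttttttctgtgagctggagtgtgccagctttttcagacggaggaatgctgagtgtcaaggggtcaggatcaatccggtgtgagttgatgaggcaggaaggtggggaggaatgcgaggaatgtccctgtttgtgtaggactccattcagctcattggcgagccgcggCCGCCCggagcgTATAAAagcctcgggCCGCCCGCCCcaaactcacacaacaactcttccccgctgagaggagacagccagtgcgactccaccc

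Over the expressed protein-coding genes, 9676 of 11801 (82.0%) had a promoter in the RefSeq table. TATAAA stood on either strand in 5.10% of them, against 12% of all 27303 promoters of the table. GGGCGG, the GC box, stood in 71.6% against 44.6%, and CCAAT, also on either strand, in 36.7% against 35.7%. The median number of CpG dinucleotides in the 300 bases was 27 against 14, and the median GC content was 65.7% against 58.3%. The table's promoters include those of the expressed genes and of genes of any kind, so being expressed and being protein-coding cannot be told apart in these shares. A match describes letters in this window and is no evidence of a bound factor. For the 100 most abundant genes (74% covered) and for silent protein-coding genes (75% covered) the check is void, since under 80% have a promoter in the table.

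Nuclear receptors were expressed in 26 of 48 cases. RXRA, the partner of many others, led at 44.1 ± 1.53 CPM per kb, then NR2F2 (42.6 ± 0.349), the liver X receptor NR1H2 (34.2 ± 0.902) and the glucocorticoid receptor NR3C1 (34.1 ± 1.17). RXRA and NR2F2 overlapped between libraries, as did NR1H2 and NR3C1. By CPM, NR3C1 was at 239, 252 and 255. ESR2, the beta estrogen receptor, had 14, 17 and 9 counts, and RXRG, ESRRB and ESRRG had none.

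Cytokine and death receptors were expressed in 37 of 46 cases, the largest share among the receptor lists as chosen here. OSMR, which pairs with IL6ST to bind oncostatin M, was at 616, 674 and 665 CPM. IL6ST, the shared signalling subunit gp130, was at 905, 923 and 988 CPM. LIFR, which pairs with IL6ST for leukemia inhibitory factor, was at 95.7 ± 3.53 CPM. Per kb OSMR led at 118 ± 5.57, then TNFRSF12A, the TWEAK receptor (105 ± 3.74), IL6ST (104 ± 4.83) and TNFRSF21, death receptor 6 (90.2 ± 0.367). TNFRSF12A and IL6ST overlapped. IL6R, which binds interleukin 6 itself, was at 1.84, 2.24 and 1.91 CPM, or 0.338 ± 0.0360 CPM per kb, far below IL6ST. CSF3R, GHR and IL13RA2 had no count.

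Receptors of the TGF-beta family were expressed in 10 of 14 cases. TGFBR2 and TGFBR1, which form the TGF-beta receptor, were at 65.1 ± 2.22 and 24.1 ± 0.859 CPM per kb. ACVR1 and BMPR2, receptors of bone morphogenetic proteins, followed at 12.7 ± 0.294 and 12.1 ± 0.876 CPM per kb and overlapped. Among receptors of the Notch, Wnt and Hedgehog pathways 15 of 22 were expressed, led by LRP5, a Wnt co-receptor (59.2 ± 2.87 CPM per kb), NOTCH2 (52.7 ± 1.87), and the Wnt receptors FZD6 (33.0 ± 1.74) and FZD2 (26.7 ± 0.144). SMO, the Hedgehog signal transducer, had 2, 0 and 1 counts, although PTCH1, the Hedgehog receptor, was at 21.9, 22.5 and 23.5 CPM.

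G protein-coupled receptors were expressed in 34 of 58 cases. ADGRE5, an adhesion receptor, and F2RL1, a protease-activated receptor, overlapped at 121 ± 4.44 and 119.8 ± 7.62 CPM per kb. The adenosine receptor ADORA2B (59.8 ± 2.95) and the thrombin receptor F2R (33.4 ± 1.5) came next. CXCR4, the chemokine receptor studied in breast cancer spread, was at 5.69, 4.45 and 5.15 CPM, and CXCR1 and CXCR2 had no count.

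Integrin subunits were expressed in 15 of 26 cases and had the highest sum of the receptor lists, 7960.2 to 8106 CPM per library. ITGB1 (707 ± 9.6 CPM per kb) and ITGA3 (576 ± 13.8) stood far above ITGA6 (159 ± 3.32) and the fibronectin-binding subunit ITGA5 (82.2 ± 3.49). ITGAL of leukocytes had 0, 0 and 1 counts and ITGAD none.

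Paralogs were compared as shares of the summed CPM per kb of their family, over 64 families with 253 members. A single member held 80% or more in 22 families and 90% or more in 15. In 6 families only 1 member was expressed, and in 29 all were. In 10 families the leader held 50% or less. The leader lay above the second member in every library in 63 families. The exception was class I PI3K, where PIK3CB held 42.9% ± 0.919 and PIK3CD 41.0% ± 1.42.

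**Figure D3:**
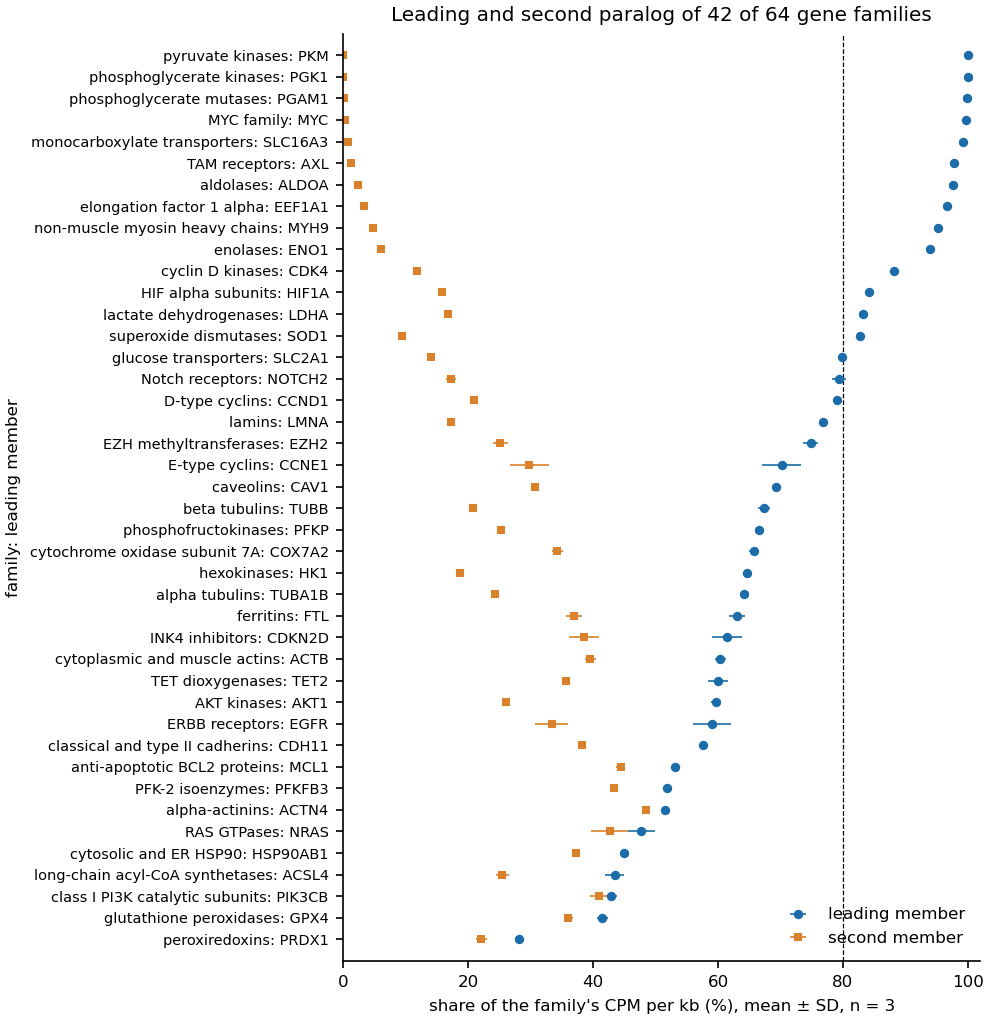
Share of each family's summed CPM per kb held by its leading member (circles) and second member (squares), mean ± SD over 3 libraries, for 42 of the 64 families, named with their leader, with a dashed line at 80%. In 14 of those shown the leader lies at or beyond the line, and PRDX1, the leader of the peroxiredoxins, lies at 28.1%.

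Glycolysis was led by one paralog at most steps. PGK1, PGAM1 and PKM were the only expressed phosphoglycerate kinase, phosphoglycerate mutase and pyruvate kinase of those listed. ALDOA held 97.7% ± 0.0173 of the aldolases, ENO1 94.0% ± 0.263 of the enolases and LDHA 83.2% ± 0.463 of the lactate dehydrogenases. SLC16A3, the lactate exporter MCT4, held 99.2% ± 0.0733 of the monocarboxylate transporters, with SLC16A1 at 0.693% ± 0.0546. The hexokinases and phosphofructokinases were less concentrated, while the glucose transporters came close to the lactate dehydrogenases. SLC2A1 held 79.8% ± 0.546 of the glucose transporters ahead of SLC2A3 (14.1% ± 0.456), HK1 held 64.7% ± 0.312 of the hexokinases ahead of HKDC1 (18.6% ± 0.510) and HK2 (16.7% ± 0.410), and PFKP 66.6% ± 0.147 of the phosphofructokinases ahead of PFKL (25.2% ± 0.437).

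Signalling and cell-cycle families differed among themselves. AXL held 97.8% ± 0.0731 of the TAM receptors and MYC 99.7% ± 0.0405 of the MYC family, with no count for MYCN. CDK4 held 88.2% ± 0.662 against CDK6, CCND1 79.0% ± 0.569 of the D cyclins, NOTCH2 79.4% ± 1.11 of the Notch receptors and HIF1A 84.2% ± 0.326 of the HIF alpha subunits. Of the ERBB receptors EGFR held 59.0% ± 3.00 and ERBB2 33.4% ± 2.65. Of the anti-apoptotic proteins BCL2 itself held 0.168% ± 0.0256, far below MCL1 (53.1% ± 0.689) and BCL2L1 (44.4% ± 0.704).

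Among the long-chain acyl-CoA synthetases, which activate fatty acids, ACSL4, the enzyme the series targets (chromosome X, 109624244 to 109733403, minus strand), led with 43.5% ± 1.52. Its levels were 338, 334 and 363 CPM. ACSL5 held 25.5% ± 1.00, ACSL3 15.9% ± 0.239 and ACSL1 15.2% ± 0.391, while ACSL6 held 0.0258% ± 0.00417. Of the antioxidant families, the peroxiredoxins were led by PRDX1 with 28.1% ± 0.470, and in the glutathione peroxidases GPX4, the lipid hydroperoxide reductase, at 41.5% ± 0.902 was ahead of GPX1 (36.0% ± 0.695), whereas SOD1 held 82.7% ± 0.235 of the superoxide dismutases. By CPM, GPX4 and GPX1 were level at 247 ± 11.6 and 246 ± 5.69, so the lead of GPX4 depends on the transcript length used.

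Among structural families, MYH9 held 95.2% ± 0.245 of the non-muscle myosin heavy chains, LMNA 76.8% ± 0.209 of the lamins and CAV1 69.2% ± 0.539 of the caveolins. The actins were split between ACTB (60.4% ± 0.857) and ACTG1 (39.5% ± 0.856), and the alpha-actinins between ACTN4 (51.5% ± 0.604) and ACTN1 (48.5% ± 0.598). The cadherins were led by CDH11 (57.7% ± 0.324), a mesenchymal cadherin, and CDH4 (38.2% ± 0.516), with CDH1 at 1.59% ± 0.0257 and CDH2 at 1.39% ± 0.243. Neither E- nor N-cadherin led the family.

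Some leaders depend on the transcript length used. On CPM alone 5 families had another leader, among them SOD2 in place of SOD1, COX7A2L in place of COX7A2 and PRDX3 in place of PRDX1. With the median length of a gene's transcripts 13 families did, including the first 2 named. Others were HSP90B1 for HSP90AB1, HRAS for NRAS, AKT2 for AKT1, PIK3CA for PIK3CB, CCNE2 for CCNE1, BCL2L1 for MCL1, TET3 for TET2, EZH1 for EZH2 and PFKFB4 for PFKFB3. For these families the order of the genes named is unsettled. In families that kept their leader on CPM, the share fell by over 1.5 times for CDK4, to 57.3% of CDK4 and CDK6, and for LGALS1 of the galectins, from 87.1% to 58.0%.

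Near-identical paralogs carry a further limit, since a read that fits both can be counted to either. The first 60 coding bases are shown for the actins, a pair with differences spread along the sequence, from GENCODE v29 transcripts, with the bases that differ in capitals. ACTB lies on chromosome 7 (5527147 to 5563784, minus strand) and ACTG1 on chromosome 17 (81509971 to 81523847, minus strand). They differ at 10 of the 60 bases and at 99 of 1128 coding bases (91.2% identical). TUBA1B (49127782 to 49131397) and TUBA1A (49184796 to 49189324) are near each other on the minus strand of chromosome 12. They differ at 38 of 1356 coding bases (97.2% identical).
ACTB: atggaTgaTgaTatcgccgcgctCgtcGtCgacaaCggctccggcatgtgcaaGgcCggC
ACTG1: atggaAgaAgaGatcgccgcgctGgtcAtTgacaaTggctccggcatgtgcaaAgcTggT

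Runs of 50 bases shared with another member made up 1.19% of the ACTB transcript but 56.6% of TUBA1B and 40.9% of TUBA1A. The shares of TUBA1B (64.2% ± 0.270 of the alpha tubulins) and TUBA1A (9.37% ± 0.247) are uncertain for this reason, as are those of TUBB2A (60.3% of its runs shared) and SLC2A3 (23%). In all, 12 of the 253 members had at least 10 percent of their runs in another member. Pseudogenes were not part of this count.

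A block of chromosome 9p21 had no count at all. On GRCh38, 24 neighbouring protein-coding rows from HACD4 to IZUMO3 (chromosome 9, 20999515 to 24545946) were at 0 in all 3 libraries. They include CDKN2A and CDKN2B, the INK4 inhibitors of CDK4 and CDK6. They also include MTAP, which recycles methylthioadenosine in most tissues, and the type I interferon cluster, whose genes are usually off without infection. The non-coding rows MIR31HG and CDKN2B-AS1 in the block were at 0 as well. At the lower coordinates FOCAD was at 1.49, 1.57 and 1.76 CPM and MLLT3 at 20.7, 21.8 and 21.9 CPM. On the other side TUSC1 was at 8.08, 8.0 and 6.79 CPM and CAAP1 at 32.1, 29.2 and 33.6 CPM. The block thus began and ended between genes with counts in every library. Among runs of neighbouring protein-coding rows with no count, it ranked 4 by number of rows. Ahead of it were runs of mostly olfactory receptors (48 rows in all), mostly keratin-associated proteins (35) and mostly late cornified envelope genes (25). Whether the DNA of the block is present was not tested. Of the other INK4 genes, CDKN2D held 61.4% ± 2.36 and CDKN2C 38.6% ± 2.36 of the family.

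**Figure D4:**
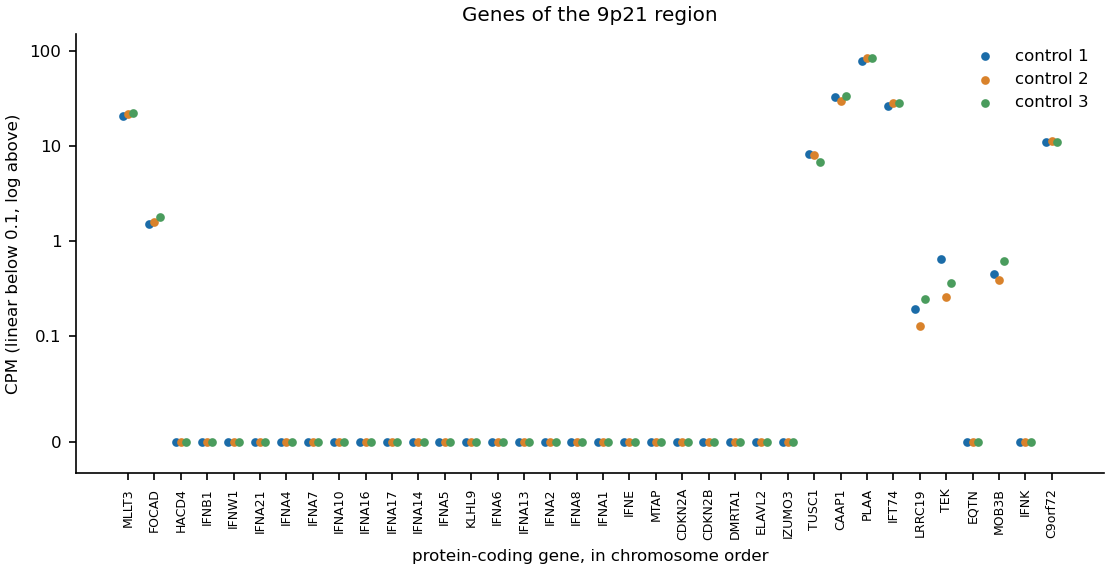
CPM in each control library (linear below 0.1, log above) of the protein-coding genes of the 9p21 region, in chromosome order and evenly spaced. The 24 genes from HACD4 to IZUMO3 lie at 0 in all 3 libraries, between FOCAD with a mean of 1.60 CPM and TUSC1 with 7.62 CPM.

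The 3 libraries lay close to each other for most genes. The common biological coefficient of variation (BCV), which is the spread left after counting error, was 4.01%, with a jackknife SE of 0.481. Among 9451 genes at 10 CPM or more the median CV was 3.73%, against 2.57% from counting alone, and 68.6% of these genes had a CV under 5%. The median CV fell with level, from 9.53% at 1 to 10 CPM (8.55% from counting) through 4.09% at 10 to 100 CPM and 2.89% at 100 to 1000 CPM to 2.48% at 1000 CPM or more (0.437% from counting). At high levels most of the spread was thus more than counting error. Each pair of libraries differed by more than counting noise (chi-square over its degrees of freedom 4.08 to 5.05).

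Of those genes 21 had a CV of 20% or more. NEAT1 and MALAT1, long non-coding RNAs retained in the nucleus, were among the 8 genes with the highest gene-wise BCV. NEAT1 was at 981, 528 and 673 CPM, and MALAT1 at 911, 529.8 and 621 CPM. Both were highest in library 1 and lowest in library 2. Rows of ribosomal RNA differed as well, with RNA28S5 at 1656, 1944 and 1341 CPM, highest in library 2 and lowest in library 3. GTF2IP4, a pseudogene, was at 20.8, 6.46 and 5.54 CPM and RGPD8, which has near-identical copies, at 30.6, 53.2 and 35.3 CPM, and both counts are uncertain. The other 4 of the 8 lay near the limit of 10 CPM: PPP1R35 (15.5, 16.8 and 9.45 CPM), MPC1, a subunit of the mitochondrial pyruvate carrier (13.6, 9.50 and 8.06), TPM2, a tropomyosin (13.0, 9.34 and 8.21), and GABRE, a subunit of the GABA receptor (13.4, 8.22 and 11.1).

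The 8 lowest values of the gene-wise BCV belonged to RAPGEF1, RPA1, ANTXR2, SHMT2, STARD7, SEPN1, GOLPH3 and CHMP4B, all at 3.20%. The gene-wise BCV is drawn toward a trend across genes, here 3.43%, and its lowest values lie together, so this order does not rank genes by steadiness. Genes with a lower observed CV, such as CANX at 0.302%, are not among the 8. RPA1, a subunit of the complex that coats single-stranded DNA, was at 166, 168 and 167 CPM.

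GC content moved with the libraries by a small amount. The genes highest in transcript GC (56.7% or more) lay at a median log2 deviation from their own mean of 0.03 in library 1, 0.00 in library 2 and -0.04 in library 3. Those lowest in GC (42.0% or less) lay at -0.03, -0.02 and 0.05. CEBPB, an acute-phase transcription factor chosen after its values were seen, was at 133, 155 and 95.5 CPM and has a transcript GC of 66.2%. PPP1R35 (66.0% GC) was also lowest in library 3. Both genes were highest in library 2, whereas the genes highest in GC lay highest in library 1. The part of GC content in these differences was not tested.

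**Figure D5:**
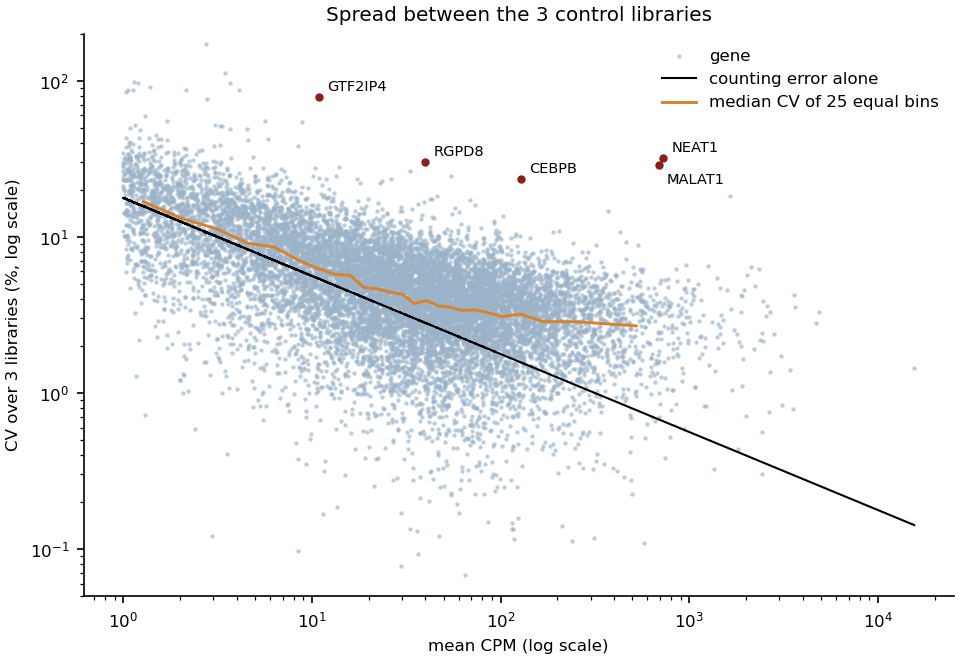
CV over the 3 control libraries against mean CPM (both log axes), a point per gene at 1 CPM or more, with the CV from counting error alone (black) and the median of 25 equal bins (orange). The median leaves the counting line as level rises, and NEAT1 and MALAT1 lie far above it at 727 and 687 CPM.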

How the data were processed

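RNA was extracted with Trizol and sequenced as Illumina libraries, per the labels' protocols. The authors deposited expected counts (estimated counts per gene symbol, not scaled for depth), and 10.2% ± 0.148 of control values were not whole. The genome build was GRCh38, per the submitters' processing notes. No source used here gives the aligner, counter, annotation or use of strand, so overlapping, antisense and near-identical genes are uncertain. The 3 control columns (30845845 to 33020202 counts) were rounded and scaled with TMM factors over these 3 libraries (edgeR 4.0.16, R 4.3.3). Of 26475 rows, 24595 matched GENCODE v29 by name or RefSeq synonym. Symbols of 28 rows had become calendar dates, and these rows hold 0.236% to 0.243% of counts and are not named.

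Lengths were planned from RefSeq but taken from the longest GENCODE v29 transcript with a RefSeq match, else the longest transcript. BCV was estimated with an intercept-only design on 13482 genes after filterByExpr, and its script was tested on simulated data. DESeq2 1.42.0, Python 3.11.15, pandas 2.3.3, numpy 2.4.6 and matplotlib 3.10.9 were also used. Promoter sequences are RefSeq's, on GRCh38.p14.

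The rule for named genes gave the 25 genes of highest CPM, the 4 highest per kb and the defining members of each of 19 lists, the leader and the next of described families, the 8 highest and 8 lowest gene-wise BCV among genes at 10 CPM or more with an established symbol, and ACSL4 and SNAI1. A few genes of this rule, and the sequences of 1 pair, are not reported here. Other named genes were chosen after their values were seen. The members and lists were chosen with earlier results of these data known. Alternatives were other scalings, cuts, lengths and filters, unrounded counts, and leaving out each library.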

Additional observations from a re-analysis of the deposited data

How the results depend on the processing

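No paired analysis was possible because a single group was described and no groups were compared. Of 48 alternative values of the 8 summary results, 46 stayed within their limits (1.5 times for a count, 1 error for a value). For the BCV the limit was its jackknife SE, which comes from the same leave-one-out values, so these could hardly fall outside it. The limit for the share of counts held by the most abundant genes also comes from the same libraries. Leaving out a library therefore could not test the BCV or that share against these limits. Ranked per length, 11 of the 25 most abundant genes were shared, and the median gene-wise dispersion of DESeq2 gave a CV of 2.17% in place of the common BCV of 4.01%, a median over genes in place of a common value. Without each library in turn the BCV ran from 3.64% to 4.45%, the expressed genes from 12472 to 12520, and 24 to 25 of the top 25 were shared. With a library left out, fewer libraries had to meet each cut. Counts of expressed, silent and no-count genes could therefore hardly fall, and their rise is no test. Leading paralogs were the same in 59 of 64 families on CPM and in 51 with the median transcript length. The count of 51 lay within the limit of 1.5 times although the leaders of the other families changed. Families with a single member at 80% or more were not recounted with that length. Expressed members of the lists moved by over 1.5 times in 1 of 133 recounts, that of the 9p21 list, where a cut of 2 CPM left 1 gene. Depth limits levels under 0.1 CPM, and silent genes numbered 9546 at 0.05 CPM and 11700 at 0.2 CPM.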

Other observations

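Gene families were also taken by symbol, after their levels were seen. Their counts are to be read against the 46.9% of all rows and the 61.9% of protein-coding rows that were expressed. Of 15 HLA class II rows 10 were expressed, a share near that of protein-coding rows. HLA-DRA was at 142, 157 and 142 CPM and HLA-DPA1 at 96.1 ± 1.5 CPM. CD74, the invariant chain that escorts class II molecules, was at 661, 676 and 655 CPM, and CIITA, their master regulator, at 10.9, 9.76 and 11.7 CPM. Among class I rows HLA-B was at 2026 ± 115 CPM. Reads of HLA genes can be shared between near-identical copies, so the split between rows is uncertain.

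Of 77 interleukins, colony-stimulating factors and chemokines 19 were expressed, a share below that of all rows, as in the keratin, HOX and MAGE families. CXCL8, a neutrophil attractant, was at 943, 917 and 1005 CPM, CSF1, the macrophage growth factor, at 655 ± 18.8 CPM, IL1A at 389 ± 15.4 CPM and IL6 at 252 ± 2.98 CPM. Of 56 keratin rows 11 were expressed, among them KRT80 at 353, 351 and 352 CPM. EHF, an ETS factor known from epithelia, was at 387, 389.5 and 402 CPM, and the related ELF3 at 13.7, 13.8 and 13.1 CPM. Of 39 HOX rows 6 were expressed, led by HOXB9 at 27.4 ± 1.11 CPM, and of 26 MAGE antigen rows 0 were expressed, 5 were low and 21 silent. SOX9 was at 175 ± 9.14 CPM and GATA6 at 67.2 ± 1.53 CPM.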
